A study of Mus musculus with 6 samples.

Results

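The Müllerian duct and coelomic epithelium were followed through 10 genes in a table of 20033 genes: Wnt7a and Amhr2, which belong to the Müllerian duct and the mesenchyme around it, and 8 mesothelial genes, Msln, Muc16, Upk3b, Upk1b, Lrrn4, Gpm6a, Bnc1 and Bnc2. They were chosen by name, and each symbol matched 1 row. RNA was sequenced from male mesonephroi of mouse embryos at E12.5, with 3 libraries labelled control and 3 labelled Knockout for Wnt9b, each from its own mouse. The knockout was global and not limited to the Wolffian duct. Heterozygous is the genotype given for the controls in their sample records, whereas the series design describes wild-type embryos; the name control is kept here. Nothing in the labels says that the groups share another allele or treatment. Expression is given in TPM, the abundance unit of the deposited table, which is scaled for transcript length and for the library total.

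The Müllerian duct, from which the oviduct and uterus form in females, starts as an invagination of the coelomic epithelium over the mesonephros. It then grows tailward along the Wolffian duct, which secretes Wnt9b, and this growth is known to need that ligand. In males, anti-Müllerian hormone from the Sertoli cells of the testis makes the duct regress by acting on its receptor, encoded by Amhr2, in the cells around the duct; Wnt7a from the duct epithelium is known to be needed for that receptor to be expressed there. Amhr2 is also expressed by somatic cells of the gonad, which lies against the mesonephros.

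Wnt7a was lower in every knockout library than in every control library, with a mean that was 73.8% of the control mean. Amhr2 and Muc16, the gene of a large surface mucin of mesothelium, had knockout means of 71.7% and 72.0% of control, but their groups overlapped. Upk3b, Bnc1 and Bnc2 had knockout means above control, by 9.27%, 13.6% and 11.3%. All 10 genes passed the filter on low values, and 0 of 10 passed the test across all 17577 genes tested (limma on log2(TPM + 1), adjusted p under 0.05), where 0.444% of genes passed. At an unadjusted p under 0.05 there were 3 of the 10 (Wnt7a, Amhr2 and Muc16), against 11.3% of all genes tested. The median log2 difference of the 10 genes was -0.18 and that of all genes tested was -0.0075.

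Wnt9b, the targeted gene, was at 24.9, 26.4 and 34.0 TPM in the controls and at 23.4, 19.2 and 19.0 TPM in the knockouts. Its knockout mean was 72.3% of the control mean, with a log2 difference of -0.44 (limma adjusted p = 0.266). The authors' deposited table marks Wnt9b as down, with an adjusted p of 0.0263. The knockouts still held reads of the gene, and which exons these come from was not analysed here. Reads assigned to genes, recovered from the TPM values as lower bounds, ran from 26144450 to 30375478 per library. Knockout 3 stood apart from the other knockouts: it held 9.58 TPM of Amh, the gene of anti-Müllerian hormone, against 67.8 and 44.7 TPM in the knockouts 1 and 2. Leaving it out raised the number of genes past the test from 78 to 242, so values without it are also given. Without knockout 3 the log2 differences of Wnt7a, Upk1b, Lrrn4 and Gpm6a were -0.39, -0.0083, -0.27 and -0.076. Those of Upk3b, Bnc1 and Bnc2 were 0.053, 0.11 and 0.086, and those of Amhr2, Muc16 and Msln are given below.

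Wnt7a (ENSMUSG00000030093), a secreted Wnt ligand of the Müllerian duct epithelium, was at 20.5, 19.1 and 19.9 TPM in controls 1 to 3. Knockouts 1 to 3 had 17.0, 13.0 and 13.9 TPM. The controls lay close together, and the highest knockout was below the lowest control. The means were 19.8 ± 0.732 TPM (SD, n = 3) and 14.6 ± 2.10 TPM (SD, n = 3). The log2 difference was -0.42 (SE 0.12, 95% interval -0.70 to -0.15; limma adjusted p = 0.226), which misses the threshold set over all tested genes. An exact two-sided permutation test gave p = 0.1, the smallest that 3 against 3 libraries allow. Leaving out single libraries kept the log2 difference between -0.53 and -0.35. Recovered reads for Wnt7a were 317, 250 and 253 in controls and 248, 173 and 185 in knockouts.

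Amhr2 (ENSMUSG00000023047), the type II receptor gene for anti-Müllerian hormone, was at 91.5, 79.0 and 63.2 TPM in controls 1 to 3. In knockouts 1 to 3 it was at 49.6, 47.5 and 70.6 TPM. Knockouts 1 and 2 lay below all controls, while knockout 3 lay above control 3, so the groups overlapped. The means were 77.9 ± 14.2 TPM (SD, n = 3) and 55.9 ± 12.8 TPM (SD, n = 3), a log2 difference of -0.48 (SE 0.17, 95% interval -0.88 to -0.078; limma adjusted p = 0.348). The exact two-sided permutation p was 0.2. Without knockout 3 the log2 difference was -0.66 (limma adjusted p = 0.0868), and without control 1, the library of highest Amhr2, it was -0.36 (limma adjusted p = 0.552). The authors' deposited table gives adjusted p-values of 0.0612 for Amhr2 and 0.0897 for Wnt7a. In whole mesonephroi, fewer cells of a type and less RNA per cell cannot be told apart.

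The bases before the start sites of Wnt7a and Amhr2 are shown because these genes had differences in the same direction and because Amhr2 holds a match for steroidogenic factor 1, the product of the gonadal gene Nr5a1. Of the 10 genes, 8 have a promoter entry in RefSeq (GRCm38.p6), with 9 start sites. The 250 bases before each start were searched on both strands for 3 motifs: CTTTGAT for TCF/LEF factors, through which beta-catenin acts, CAAGGTCA for steroidogenic factor 1 and AGATAA for GATA factors. The Amhr2 stretch is chr15:102445117-102445366 on the + strand, with the match in capitals, 232 to 225 bases before the start. The Wnt7a stretch is chr6:91411354-91411603 on the - strand and holds no match to the 3 motifs.
Amhr2: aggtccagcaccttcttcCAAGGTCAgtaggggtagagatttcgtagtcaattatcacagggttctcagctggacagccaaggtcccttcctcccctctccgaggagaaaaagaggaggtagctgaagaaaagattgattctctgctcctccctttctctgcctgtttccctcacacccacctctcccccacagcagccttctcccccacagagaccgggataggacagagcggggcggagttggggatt
Wnt7a: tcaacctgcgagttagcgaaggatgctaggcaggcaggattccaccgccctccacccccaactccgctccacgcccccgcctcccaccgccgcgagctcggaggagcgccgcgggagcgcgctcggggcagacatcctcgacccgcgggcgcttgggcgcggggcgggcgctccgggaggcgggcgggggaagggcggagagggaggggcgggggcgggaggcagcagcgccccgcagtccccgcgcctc
CAAGGTCA was present in 1.33% of the 32851 promoters of the table. The Wnt7a stretch has 77.6% G and C and 34 CpG pairs, against 55.2% and 5 for Amhr2. CTTTGAT, found in 3.21% of promoters, matched only the Bnc2 entry among the 9, on the other strand. That entry ends in the letters of a splice acceptor and may not be a true start, so it is not printed. AGATAA, in 9.99% of promoters, matched none of the 9. These are matches of letters only.

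**Figure D1:**
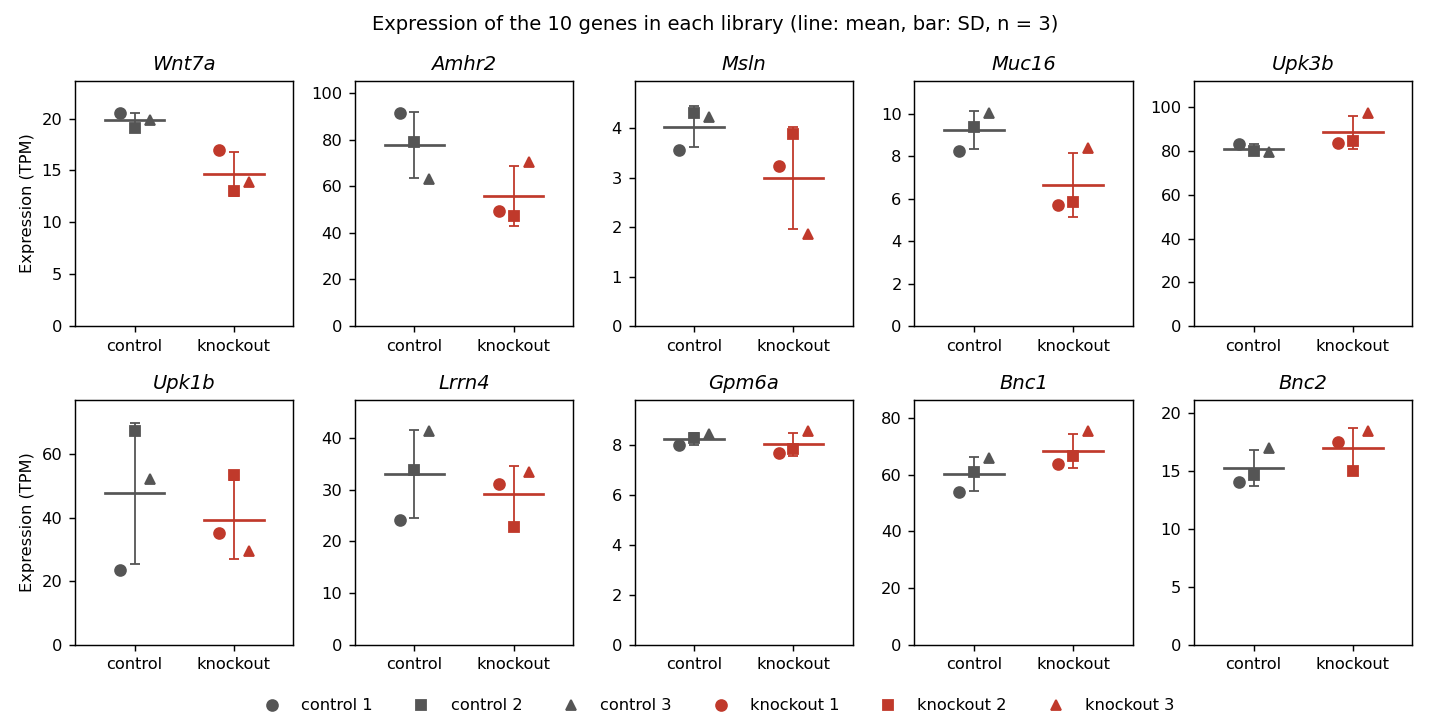
Expression in TPM (vertical axes, from 0) of Wnt7a, Amhr2 and the 8 mesothelial genes in each control and knockout library; symbols mark the embryo number within a group, lines the mean and bars the SD (n = 3). Wnt7a is lower in all knockouts (13.0 to 17.0 TPM) than in all controls (19.1 to 20.5 TPM), and Upk1b runs from 23.7 to 67.2 TPM within the controls.

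Among the surface proteins of mesothelium, Muc16 (ENSMUSG00000109564) was at 8.26, 9.36 and 10.03 TPM in controls 1 to 3 and at 5.67, 5.85 and 8.38 TPM in the knockouts 1 to 3. As with Amhr2, knockouts 1 and 2 were the lowest libraries and knockout 3 lay within the control range. The means were 9.22 ± 0.894 and 6.63 ± 1.52 TPM, and the log2 difference was -0.43 (SE 0.17, 95% interval -0.83 to -0.040; limma adjusted p = 0.392). The authors' deposited table gives Muc16 an adjusted p of 0.0121 and a log2 fold change of -0.47; it is the only 1 of the 10 under 0.05 there, where 3.55% of genes are. With limma-voom on the recovered reads, 1294 to 2120 for Muc16 per library, the adjusted p was 0.0849 and none of the 10 passed, against 1.67% of genes. Without knockout 3 the log2 difference of Muc16 was -0.59 (limma adjusted p = 0.107).

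Msln (ENSMUSG00000063011) encodes mesothelin, a surface protein that binds the Muc16 mucin. It was at 3.56, 4.31 and 4.23 TPM in the controls and 3.23, 3.89 and 1.87 TPM in the knockouts. The 2 lower knockouts were below all controls, and knockout 2 lay within the control range. Its log2 difference of -0.36 (SE 0.23; limma adjusted p = 0.616) moved most without knockout 3, where it was -0.14. Msln was the lowest of the 10 genes, with 48 to 109 recovered reads per library.

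The uroplakins are membrane proteins first known from the bladder surface. Upk3b (ENSMUSG00000042985) was at 83.4, 80.1 and 79.4 TPM in the controls and 83.5, 84.6 and 97.4 TPM in the knockouts. Every knockout was above every control, although knockout 1 and control 1 differed by less than 1 TPM. The log2 difference was 0.12 (SE 0.076, 95% interval -0.052 to 0.30; limma adjusted p = 0.612). Upk1b (ENSMUSG00000049436) was at 23.7, 67.2 and 52.1 TPM in the controls and 35.3, 53.4 and 29.5 TPM in the knockouts. Its coefficient of variation was the highest of the 10 genes in controls, at 46.4%, and second to that of Msln in knockouts, at 31.5% against 34.3%. The knockouts lay within the control range. Its log2 difference of -0.19 had a 95% interval from -1.01 to 0.64, and it was 0.12 without control 2. These libraries therefore leave differences in either direction possible for Upk1b.

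Lrrn4 (ENSMUSG00000043110), a leucine-rich repeat membrane protein gene, was at 24.2, 33.8 and 41.3 TPM in the controls and 31.1, 22.8 and 33.5 TPM in the knockouts. The groups overlapped. Lrrn4 differed by -0.17 on the log2 scale (SE 0.20; limma adjusted p = 0.822), and by 0.0064 without control 3. Gpm6a (ENSMUSG00000031517), a tetraspan membrane protein gene also used by neurons, was at 7.99, 8.28 and 8.45 TPM in the controls and 7.68, 7.85 and 8.54 TPM in the knockouts. Its values were close together in all 6 libraries, and the 95% interval of its log2 difference of -0.036 ran from -0.32 to 0.25.

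The 2 zinc finger factors had means above control. Bnc1 (ENSMUSG00000025105), which encodes basonuclin 1, was at 53.9, 61.1 and 66.1 TPM in the controls and 63.8, 66.5 and 75.3 TPM in the knockouts. Bnc2 (ENSMUSG00000028487), its relative, was at 14.0, 14.6 and 17.0 TPM in the controls and 17.4, 15.0 and 18.4 TPM in the knockouts. In both genes control 1 was the lowest library and knockout 3 the highest, and the groups overlapped. The log2 differences were 0.18 (95% interval -0.041 to 0.41) for Bnc1 and 0.14 (95% interval -0.14 to 0.42) for Bnc2 (limma adjusted p = 0.555 and 0.722).

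**Figure D2:**
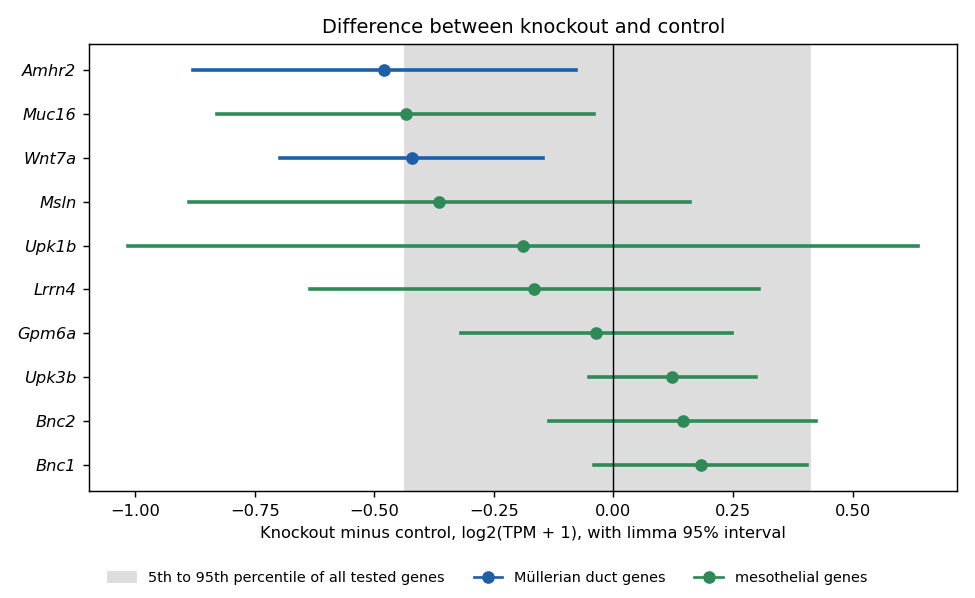
Difference between knockout and control on the log2(TPM + 1) scale (horizontal axis) for each of the 10 genes, with the limma 95% interval, not adjusted for the number of genes; the grey band spans the 5th to the 95th percentile of all tested genes. The intervals of Amhr2 (-0.88 to -0.078), Muc16 (-0.83 to -0.040) and Wnt7a (-0.70 to -0.15) lie below 0 and those of the other 7 genes include 0.

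Across all 10 genes, the groups did not overlap for 2, Wnt7a lower and Upk3b higher. Among all genes tested the groups did not overlap for 16.6%, 8.14% higher and 8.49% lower. The count for the 10 genes is therefore near the background. In controls the mean levels per length ran in the order Upk3b, Amhr2, Bnc1, Upk1b, Lrrn4, Wnt7a, Bnc2, Muc16, Gpm6a and Msln, from 81.0 to 4.03 TPM. The control values of neighbours overlapped from Upk3b down to Lrrn4 and between Muc16 and Gpm6a. Lrrn4 and Wnt7a, Wnt7a and Bnc2, Bnc2 and Muc16, and Gpm6a and Msln did not overlap. Upk3b was at the 89.0th percentile of mean TPM in the table and Msln at the 31.0th.

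To set the Müllerian duct genes against the mesothelial genes within each library, the mean log2(TPM + 1) of the 8 mesothelial genes was subtracted from that of Wnt7a. This gave 0.19, -0.23 and -0.21 in controls and -0.17, -0.57 and -0.50 in knockouts. Knockout 1 was above controls 2 and 3, so the groups overlapped on this scale. The knockout mean was lower by a log2 difference of -0.33, with values from -0.45 to -0.19 when single libraries were left out. For Amhr2 the same quantity was 2.29, 1.76 and 1.40 in controls and 1.32, 1.22 and 1.76 in knockouts, a difference of -0.39 that ranged from -0.59 without control 3 to -0.15 without control 1. No test was run on these scores, because the genes were chosen with earlier results known. The geometric mean TPM of the 8 mesothelial genes was 17.4, 21.98 and 22.6 in controls and 18.6, 19.2 and 19.1 in knockouts. Control 1 was the lowest library on that mean and the highest for Amhr2. Relative to Wt1, a transcription factor gene of the coelomic epithelium that is also expressed in the gonad, Wnt7a stood at 9.73%, 8.002% and 8.39% in controls and 7.12%, 5.61% and 5.87% in knockouts. Amhr2 stood at 43.3%, 33.1% and 26.6% of Wt1 in controls and 20.8%, 20.5% and 29.7% in knockouts, where the groups overlapped. These ratios to Wt1 were chosen after their values were seen.

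Other genes of coelomic epithelium and mesothelium gave a check of the tissue. Wt1 was at 211, 238 and 237 TPM in the controls and 239, 232 and 237 TPM in the knockouts (log2 difference 0.045, SE 0.065). Of the marker genes of this epithelium, the keratin gene Krt7 was at 34.3 to 36.3 TPM in all 6 libraries, and Dmkn did not match a row. Other keratin genes were less level. The mean of Krt19 rose from 98.4 to 130 TPM, while Krt8 fell from 179 to 151 TPM and Krt18 from 296 to 243 TPM. Their groups did not overlap, but none passed (limma adjusted p = 0.233, 0.193 and 0.119). By the authors' calls, Krt19 was up, Krt18 down and Krt8 unmarked. The groups overlapped for Pdpn, Nkain4 and Aldh1a2. Among the 15 genes tested in this list, 3 were higher, 0 lower and 12 did not pass limma over all genes, with a median log2 difference of 0.045. Of all genes tested, 0.444% passed. Rspo1, whose secreted product strengthens Wnt signals, rose from 37.0 ± 1.67 to 55.0 ± 0.157 TPM, and Efemp1, a fibulin of the extracellular matrix, from 42.2 ± 3.76 to 67.2 ± 5.23 TPM (limma adjusted p = 0.0187 and 0.0281). Lhx9, a LIM factor of the coelomic epithelium that is also a gonadal gene and stands in both lists, rose from 4.78 ± 1.66 to 15.5 ± 3.52 TPM (limma adjusted p = 0.0463). These calls depended on single libraries: without knockout 3 the adjusted p was 0.0231 for Rspo1 and 0.0385 for Efemp1, without any other library the adjusted p of these 2 exceeded the threshold, reaching 0.109 and 0.155 without control 2, and that of Lhx9 was between 0.0544 and 0.184 in all 6 omissions.

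Genes that act in Müllerian duct formation included Lhx1, a LIM factor needed in the duct epithelium, which fell by 1.32 on the log2 scale, from 24.0 ± 2.99 TPM in the control group to 9.03 ± 1.46 TPM (limma adjusted p = 0.0123). The mesenchymal ligand gene Wnt5a fell, at 163 ± 1.17 TPM in the control group against 115 ± 11.9 TPM (limma adjusted p = 0.0467). The mesenchymal factor gene Tcf21 rose, at 191 ± 12.6 TPM in the control group against 295 ± 24.0 TPM (limma adjusted p = 0.0197). Among the 20 genes tested in this list, Tcf21 alone was higher, 2 were lower and 17 stayed short of the threshold. Of all genes tested, 0.444% passed. The median log2 difference of the list was -0.094. Lhx1, which the Wolffian duct and tubules also express, stayed past the test without knockout 1 or 3 (adjusted p = 0.0298 and 0.0154) and reached 0.0763 without control 2. Wnt5a and Tcf21 stayed past it without knockout 3 alone, with adjusted p-values up to 0.226 without control 2 and 0.114 without knockout 2. Wnt4, a mesenchymal ligand needed for the invagination, had a log2 difference of -0.19 and Emx2, a homeobox factor of duct epithelium, one of -0.092 (limma adjusted p = 0.256 and 0.719). Pax2 and Pax8, paired-box factors of the duct epithelia, differed by -0.27 each, and Dach1, a cofactor in Müllerian duct formation, by -0.42 (limma adjusted p = 0.647, 0.445 and 0.146).

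In the pathway of anti-Müllerian hormone, Amh was at 10.5, 5.87 and 4.33 TPM in the controls and 67.8, 44.7 and 9.58 TPM in the knockouts. Knockouts 1 and 2 lay far above the controls, and knockout 3 lay just under control 1. Its log2 difference of 2.10 (SE 0.62) had a limma adjusted p of 0.244. Without knockout 3 the limma adjusted p was 0.0175, and in every other omission it was between 0.285 and 0.559. Knockout 3 was set apart by its low Amh, so its omission is not a separate test of Amh. By limma, 0 of the 16 tested genes of this list were called, and their median log2 difference was -0.066. An unadjusted p under 0.05 was reached by 7 of them, against 11.3% of all genes tested. Amh, Id2 and Id3 were higher, and Bmpr1b, Smad5, Mmp2 and Lef1 lower. The authors' deposited table marks 2, Bmpr1b and Mmp2, where 3.55% of genes are marked. Mmp2, a matrix protease of the mesenchyme around the regressing duct, was at 401, 477 and 549 TPM in the controls and 378, 300.4 and 370 TPM in the knockouts. Its groups did not overlap (log2 difference -0.44; limma adjusted p = 0.233). Bmpr1b, a type I receptor gene, had 17.1 ± 2.30 TPM in the control group and 12.0 ± 2.27 TPM in the knockout group (limma adjusted p = 0.298). The type I receptor genes Acvr1 and Bmpr1a, through which the hormone signals, had log2 differences of -0.068 and -0.11. Sp7, the osterix gene, a target of the hormone in that mesenchyme, was at 2.45 to 5.78 TPM over all libraries, with a log2 difference of -0.44 (limma adjusted p = 0.515). The genes of highest level in this list, Ctnnb1, which encodes beta-catenin, and Id3, had differences of -0.063 and 0.21.

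**Figure D3:**
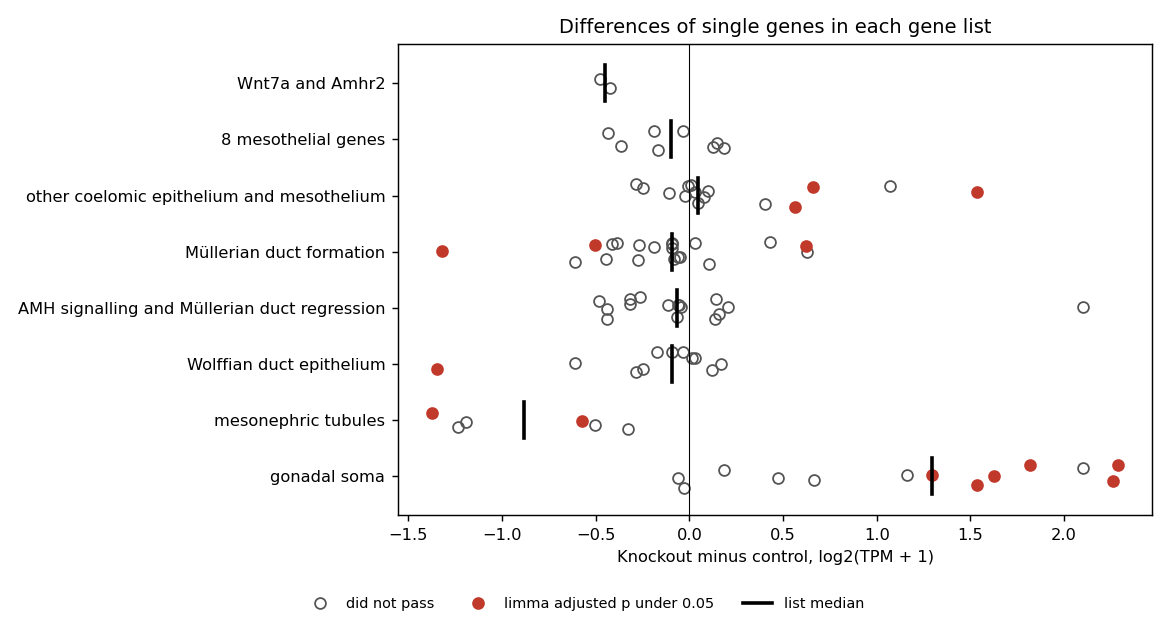
Difference between knockout and control on the log2(TPM + 1) scale (horizontal axis) for each tested gene of 8 lists; filled points passed limma over all genes and black bars mark list medians. No filled point lies among Wnt7a, Amhr2 and the 8 mesothelial genes, 3 lie among the other coelomic epithelium and mesothelium genes, and the gonadal soma list has 6, all above 0.

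Close relatives of the 10 genes were read to see how far the values were shared within families. Wnt7b, the nearest relative of Wnt7a, had mean levels of 6.24 TPM (control) and 6.12 TPM (knockout; log2 difference 0.0097). Among the other type II receptors of the family of Amhr2, Acvr2a, Acvr2b and Bmpr2 had log2 differences of -0.18, -0.14 and -0.16, and Tgfbr2 one of -0.50, with limma adjusted p-values of 0.612, 0.808, 0.577 and 0.126. Upk1a and Upk3bl, the uroplakin relatives in the table, did not exceed 8.65 and 4.74 TPM, and their differences of 0.49 and -0.64 did not pass (limma adjusted p = 0.622 and 0.494). Lrrn1, a relative of Lrrn4, fell by 0.54 on the log2 scale, from 50.2 ± 2.59 to 34.3 ± 2.42 TPM (limma adjusted p = 0.0417), whereas Lrrn2 and Lrrn3 differed by -0.034 and -0.37 without passing. The adjusted p of Lrrn1 was 0.0267 without knockout 3 and between 0.0958 and 0.220 in the other 5 omissions. Gpm6b, a relative of Gpm6a, differed by -0.19 and the mucin gene Muc1 by 0.21, and Muc4 did not exceed 0.15 TPM. Of 13 tested relatives, 0 were higher and 1 lower, with a median of -0.16, where 0.444% of all genes tested passed.

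Some markers of the gonadal soma moved with genotype, and their part in the values of Amhr2 and of the other genes was not tested. Among the 13 tested, 6 were higher, 0 lower and 7 did not pass, where 0.444% of all genes tested passed. The median log2 difference of the list was 1.30. The summed level of its 14 genes was 140 to 171 TPM in the controls and 230 to 355 TPM in the knockouts. Of the 7 that did not pass, Sox9 and Cyp26b1 had log2 differences of -0.059 and -0.032. Those of Inha, Dhh, Gstm6 and Aard were 0.18, 0.47, 0.66 and 1.16, and Amh is described above. Dmrt1 fell short of the filter, with means of 0.473 TPM in controls and 1.97 TPM in knockouts. None of these 14 genes was listed at 0 in any library. Nr5a1, which encodes steroidogenic factor 1, was at 9.48, 5.20 and 4.97 TPM in the controls and 25.1, 20.2 and 19.4 TPM in the knockouts, and Gata4, a zinc finger factor of the early gonad, at 17.0, 8.25 and 7.02 TPM in the controls and 39.6, 41.2 and 33.2 TPM in the knockouts (limma adjusted p = 0.0281 and 0.0354). The log2 rise was 2.29 for Kctd14 and 2.26 for Cbln1 (limma adjusted p = 0.00858 and 0.0179). Of the 4, Kctd14 lost its call without control 3 alone (adjusted p = 0.0587), and the others lost it without control 2 or 3 or without knockout 1 or 2, with adjusted p-values up to 0.160. Within the controls, control 1 was highest for Amhr2, Amh, Nr5a1 and Gata4. Across the groups the order differed: the knockouts had more Nr5a1 and Gata4 than all controls, and knockouts 1 and 2 had the lowest Amhr2.

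**Figure D4:**
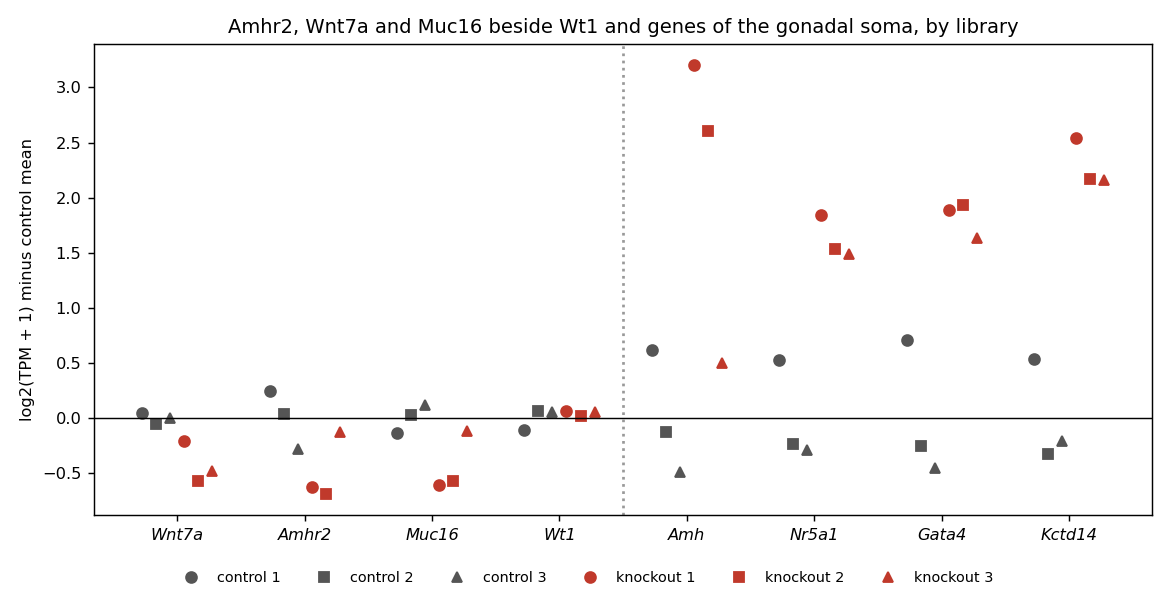
Level of each library as log2(TPM + 1) minus the control mean (vertical axis) for Wnt7a, Amhr2, Muc16 and Wt1, left of the dotted line, and for Amh and the gonadal genes Nr5a1, Gata4 and Kctd14, right of it. Nr5a1, Gata4 and Kctd14 are higher in all knockouts than in all controls, while Amhr2 and Muc16 are lowest in knockouts 1 and 2.

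Markers of other cell types in the dissected tissue were summed in the same way. The 11 genes of Wolffian duct epithelium summed to 919 to 959 TPM in the controls and 782 to 864 TPM in the knockouts; 1 of 11, Calb1, fell (limma adjusted p = 0.0281, between 0.0398 and 0.155 in the omissions). The highest genes of that sum, Krt18 and Krt8, had means falling from 296 to 243 and from 179 to 151 TPM. Both also stand in the list of coelomic epithelium, so the sum does not follow the duct alone. Log2 differences were above 0 for 4 genes, Ret, Gata3, Cdh1 and Wnt11 (0.12, 0.027, 0.17 and 0.016), and below 0 for 7. For the mesonephric tubules, the 8 genes in the table summed to 81.2 to 88.3 TPM and 47.0 to 58.1 TPM, and 2 of 6 tested genes, Irx1 and Jag1, fell (limma adjusted p = 0.0454 and 0.0325, both past the test in the omission of knockout 3 and in no other omission that could be tested). In the mesenchyme list 1 of 9 was higher, Tcf21, and 1 lower, Pdgfrb, a growth factor receptor gene (limma adjusted p = 0.0137); that of Pdgfrb was past the threshold without control 1 or knockout 3 and reached 0.109 without control 2. No gene passed limma over all genes among 7 of endothelium, 4 of macrophages, 6 of erythroid cells, 6 of germ cells, 2 of Leydig cells and 7 of neural crest and neurons. Of these, 3, 0, 1, 0, 1 and 2 had an unadjusted p under 0.05. Among all genes tested, 0.444% passed and 11.3% had an unadjusted p under 0.05. The authors' deposited table, where 3.55% of genes are marked, has the endothelial genes Cdh5 and Kdr down. It has Sox10 and Th of the neural list up, and also the Leydig cell gene Cyp17a1, which was at 0 TPM in a library. The germ cell genes summed to 38.9, 15.4 and 15.2 TPM in the controls and 47.5, 35.4 and 18.5 TPM in the knockouts, so control 1 and knockouts 1 and 2 held most. The part of these cells in the values of the 10 genes was not tested.

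Genes whose pattern over the 6 libraries was most like that of Wnt7a or Amhr2 were found by the root mean square distance between log2(TPM + 1) values centred on each gene's mean. For Wnt7a they were Tnfrsf12a, B4galnt3, Dennd2d, Homez and Bend7, at distances of 0.029 to 0.060. Tnfrsf12a, a receptor gene of the tumour necrosis factor family, was at 11.4, 10.5 and 11.4 TPM in the controls and 9.85, 7.46 and 7.91 TPM in the knockouts. For Amhr2 they were Hdnr, Bcat1, Slc16a12, Cltrn and Slfn2, at distances of 0.085 to 0.11. Bcat1, a branched-chain aminotransferase gene, was at 9.78, 9.05 and 6.94 TPM in the controls and 6.31, 5.19 and 8.18 TPM in the knockouts, with knockout 3 above control 3 as for Amhr2. None of these 10 neighbours passed limma over all genes. The 2 sets of 5 share no gene. Both points follow largely from the choice of neighbours, made for likeness to 2 different patterns whose own genes did not pass.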

How the data were processed

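Poly(A) RNA of 6 male mesonephroi was read as pairs of 150 bases each, per the labels. The submitters' processing notes name GRCm39 and DESeq2; for the aligner, counter, strand setting and filters, the sources used here name nothing. The authors deposited 1 TPM column per library, each summing to 1000000, per the file headers, with their own log2 fold change, p-value and adjusted p-value, quoted here only as the authors'. Promoters come from RefSeq on GRCm38.p6, another build, and are tied to genes by symbol.

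The members and gene lists were chosen with earlier results of these data known. A quasi-likelihood test on counts had been planned; as the values are TPM, limma 3.58.1 in R 4.3.3 was fitted to log2(TPM + 1) values (genotype as the sole term, variance trended on the mean) of genes that reached 1 TPM in 3 or more libraries. P-values were adjusted by Benjamini and Hochberg over 17577 genes, with a threshold of 0.05. Differences on this scale understate those of low genes. Genes named were the 10 members, up to 4 called genes of each list (or 2 of highest level), the relatives of the members (1 is not reported here), and Wnt9b, Amh, Nr5a1, Gata4 and Wt1; the others were chosen after their values were seen.

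Whole reads, to a tolerance of 0.02, could be recovered from the 6 values of 20002 of 20033 genes. When 1000 genes were checked at no more than 4000 reads, 92.2% gave whole numbers, and 0% did once the values had been altered at random by up to 1%. A factor common to a gene's 6 values is lost, so reads are lower bounds. They served limma-voom, added after seeing the data. The chi-square of reads per degree of freedom between libraries of a group was at least 6.81, so none repeats another. The fit was tested on simulated data. The labels give no litter or batch.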

Additional observations from a re-analysis of the deposited data

How the results depend on the processing

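None of the 10 genes passed the test under any of the 13 alternatives (no filter on low values, median-ratio scaling, upper-quartile scaling, a pseudocount of 0.1, no mean-variance trend, a replicate block, limma-voom on recovered reads, and each of 6 omissions of a library). Of their 130 values, 128 kept their direction; Upk1b ran from -0.62 to 0.12 and Lrrn4 from -0.37 to 0.0064 over the omissions, turning above 0 without control 2 and without control 3. The count of all genes past the test, 78, was 28 without the trend, 17 with the replicate block, 293 with limma-voom and 13 to 242 over the omissions; the cause was not tested.

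Same-numbered libraries did not deviate together (correlations of -0.064, 0.050 and -0.051), so the numbers are not taken as pairs. With the replicate block, the counts were 1 for Müllerian duct formation, 2 for the gonadal soma, and 0 for other coelomic genes, relatives, Wolffian duct, tubules and mesenchyme. Without the trend they were 1 for Müllerian duct formation, gonadal soma and tubules, and 0 for other coelomic genes, relatives, Wolffian duct and mesenchyme. Median-ratio scaling gave 3 for the gonadal soma and 1 for tubules, upper-quartile scaling 3 for the gonadal soma, and a pseudocount of 0.1 gave 1 for tubules. Limma-voom gave 5 for Müllerian duct formation, 2 for relatives, 2 for Wolffian duct and 1 for endothelium. Over the omissions the counts ran from 0 to 4 for Müllerian duct formation, 0 to 1 for anti-Müllerian hormone signalling, 0 to 3 for other coelomic genes, 0 to 1 for relatives, 0 to 6 for the gonadal soma, 0 to 1 for Wolffian duct, 0 to 3 for tubules, 0 to 7 for mesenchyme and 0 to 1 for endothelium. Wnt7a relative to the mesothelial genes ran from -0.45 to -0.19 and Amhr2 from -0.59 to -0.15. With 3 libraries a group, the Wnt7a difference of -0.42 (SE 0.12) did not pass over all genes. Whether a difference of that size passes varies with the spread of the gene, and how often it would was not tested.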
